A study of Homo sapiens with 8 samples.

Results

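The genes examined here write, copy, remove or read DNA methylation, or carry out the repression that KRAB zinc finger proteins start. They are DNMT1, DNMT3A, DNMT3B, UHRF1, TET1, TET2, TET3, TRIM28, SETDB1 and CBX5, 10 of the genes named on an Agilent expression array, and they were taken by name, with every probe that the scanner files give that name. These 10 genes have 23 of the 50599 probes on the array. Of the 23, 20 were tested among 28677 probes in all, and they represent 9 of the 10 genes among 16967 tested genes with a symbol.

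RNA came from the human colon cancer line HCT-116, in 4 groups of 2 arrays that the labels call biological replicates. WT cells were the untreated parental line, and WT+NU6102 cells were the same line given NU6102, an inhibitor of CDK1 and CDK2, at 20 µM for 24 h. CDK2 KO cells were a purchased HCT-116 line with both copies of CDK2 disrupted and received no inhibitor. R50 cells were NU6102-resistant cells grown out of the parental line and maintained in 50 µM NU6102, so drug was present. They were not made by deleting CDK2, and the paper reports that sequencing of CDK2 in them showed no mutations. Parental and KO lines came from a supplier, and clone-to-clone variation could not be measured with 1 line of each kind. The arrays of WT and WT+NU6102 shared one slide and those of CDK2 KO and R50 another, each scanned on its own day. The inhibitor was thus compared with WT, and R50 with CDK2 KO, among arrays of one slide. In CDK2 KO against WT and in R50 against WT, slide and group cannot be told apart.

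DNA methylation in mammals sits mostly on CpG dinucleotides. DNMT3A and DNMT3B place it on unmethylated DNA, UHRF1 recognises the half-methylated CpGs left behind a replication fork, and DNMT1, which UHRF1 brings there, copies the mark to the new strand. TET1, TET2 and TET3 oxidise methylcytosine, the first step of active removal. KRAB zinc finger proteins bind DNA and recruit TRIM28 (KAP1), which assembles the histone H3 lysine 9 methyltransferase SETDB1 and the heterochromatin protein HP1α, the product of CBX5, into a silencing complex. HCT-116 is the line in which DNMT1 and DNMT3B were classically deleted together to strip the genome of methylation.

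Signals are given as log2 of the scanner's processed intensity minus the 75th percentile of the same array, so a value of 0 means a spot as bright as that percentile. A difference of 1 is a 2-fold difference. Probes differ in how well they hybridise, so levels were compared between groups of arrays for a single probe and never between probes. A gene with more than 1 probe was represented by the brightest on average over the 8 arrays. A probe was tested if 1 or more groups had it well above background in duplicate, and a comparison was called where limma gave an adjusted p under 0.05 (Benjamini-Hochberg, over all tested probes). With 2 arrays per group the precision of each value is limited.

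The cells carried the markers of the label. All 7 tested colon epithelial markers of a list of 8 were well above background on both arrays of every group, VIL1 being the one not tested, and their summed relative signal ranged from 468 to 735 times the 75th percentile. Of 7 fibroblast markers 1, COL1A1, was tested, with sums from 0.0774 to 0.324, and 6 of 7 leukocyte and endothelial markers summed to between 0.659 and 0.881. COL1A1 was also well above background on both arrays of every group. So were 5 of these 6 markers in WT, 4 in WT+NU6102, 6 in CDK2 KO and 5 in R50. The lists thus differed in summed signal more than in detection. CDK2 itself fell by 0.78 ± 0.04 (log2, SE, n = 2 arrays per group) in CDK2 KO against WT (limma adjusted p = 0.000271), and its probe stayed well above background on all 8 arrays. The same probe also fell in R50 against WT, by 0.335 ± 0.04, and rose with NU6102 by 0.33 ± 0.04 (limma adjusted p = 0.00706 and 0.0025). The 2 arrays of a group correlated with r between 0.9937 and 0.9958 across 28677 probes, which are not independent replicates.

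Several probes of one gene gave different answers below, so the stretches of sequence that they detect are shown first. These are the first 30 bases of probes of 60 bases, written 5′ to 3′ in the sense of the messenger RNA with no base singled out in capitals. Positions are those of the scanner files on hg19. No exon annotation of hg19 was used here, so the part of the transcript that each probe lies in is not stated. The DNMT3A probes A_23_P154500 (chr2:25456415-25456474) and A_33_P3272330 (chr2:25457095-25457154) are annotated to a long transcript, and A_23_P420373 (chr2:25504394-25504453) to a different, short one, all on the minus strand.
DNMT3A A_23_P154500: agggagacgagaacaccacacaagacattt
DNMT3A A_33_P3272330: tgtgtaagggacatgggggcaaactgaggt
DNMT3A A_23_P420373: caaaaagtcttccttccaagcgtgtatgat
The CBX5 probes A_24_P664995 (chr12:54624795-54624854) and A_23_P2355 (chr12:54639917-54639976), on the minus strand, start 15.1 kb apart.
CBX5 A_24_P664995: taagcatttatgtgtttccataactgacat
CBX5 A_23_P2355: ctttgagagaggactggaaccagaaaagat
The TET2 probes A_33_P3238690 (chr4:106199618-106199677) and A_33_P3238685 (chr4:106193920-106193979), on the plus strand, start 5.7 kb apart and are annotated to the same transcript.
TET2 A_33_P3238690: acttcaacctttttgttctaaaaattcagg
TET2 A_33_P3238685: tcaagacttgccgacaaaggaaactagaag
TRIM28 has 1 probe, A_23_P89884, whose match on the plus strand runs over chr19:59061599-59061750, a span longer than the probe, as when a probe crosses an exon junction.
TRIM28 A_23_P89884: agtttgcccaggatgtgggccgcatgttca

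**Figure D1:**
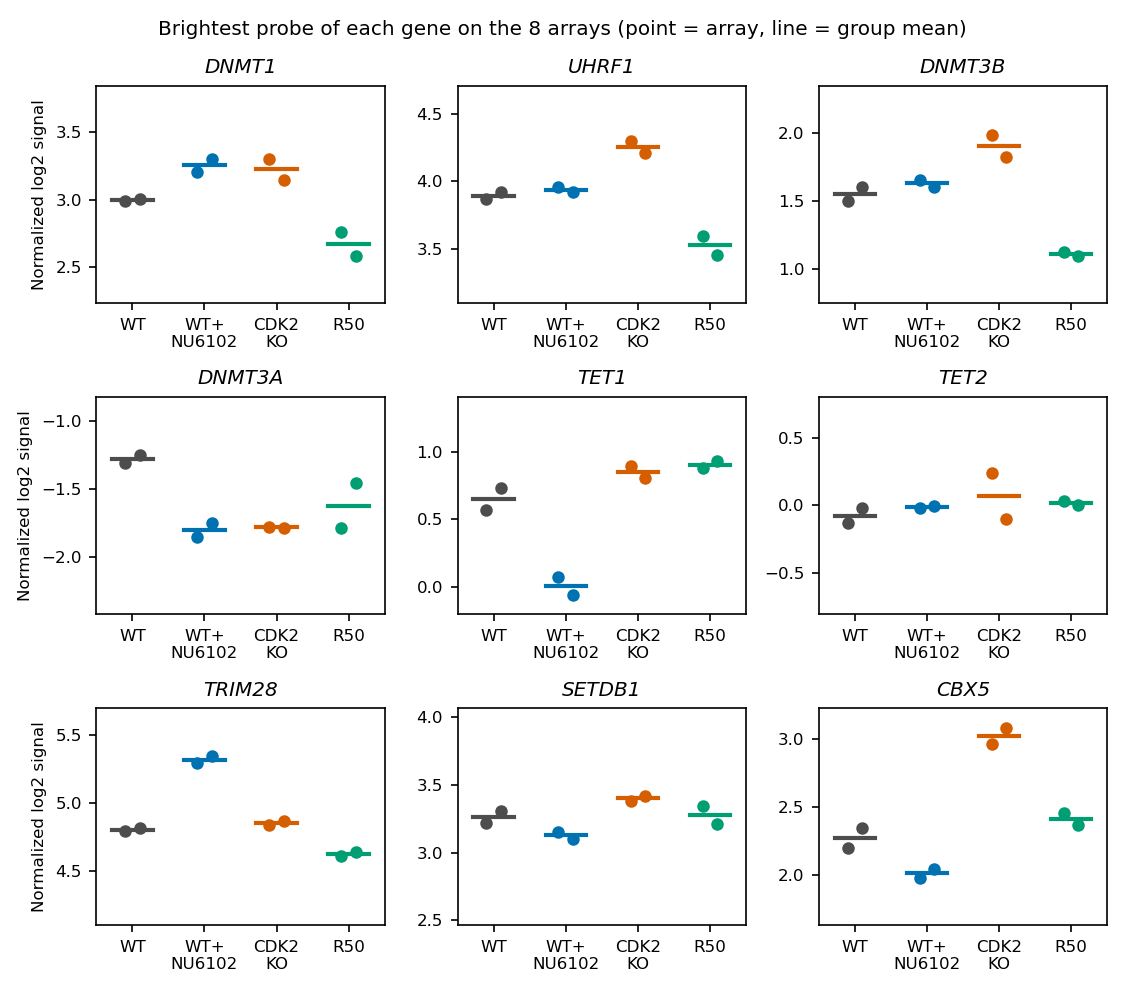
Normalized log2 signal of the brightest probe of each tested gene on the 8 arrays, with 1 panel per gene, a point per array, a line at each group mean and an axis of the same height in every panel. UHRF1, DNMT1 and DNMT3B are lowest on both R50 arrays, TRIM28 is highest on both WT+NU6102 arrays, TET1 is lowest there, and CBX5 is highest on both CDK2 KO arrays.

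The maintenance pair, UHRF1 and DNMT1, and the de novo enzyme DNMT3B had their lowest values in R50 cells. For UHRF1 the normalized signal was 3.87 and 3.92 on the WT arrays, 3.96 and 3.92 for WT+NU6102, 4.29 and 4.21 for CDK2 KO, and 3.60 and 3.46 for R50. The R50 arrays lay below all the others and the KO arrays above all the others, while WT and WT+NU6102 differed by 0.045 ± 0.07 (log2, SE, adjusted p = 0.63). UHRF1 was lower in R50 than in CDK2 KO by a factor of 1.65 (log2 difference −0.72 ± 0.07, SE, limma adjusted p = 0.00107), and the 4 arrays of that slide did not overlap. A second UHRF1 probe, A_33_P3379454, gave −0.57 ± 0.06 for the same comparison (limma adjusted p = 0.00177).

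For DNMT1, which has a single probe, the values were 2.99 and 3.01 in WT, 3.20 and 3.30 in WT+NU6102, 3.30 and 3.15 in CDK2 KO, and 2.76 and 2.59 in R50. The R50 values were again below the rest, and those of WT+NU6102 and CDK2 KO overlapped each other. DNMT1 was 1.46-fold lower in R50 than in CDK2 KO (log2 −0.55 ± 0.09, SE, limma adjusted p = 0.00614). For DNMT3B the brighter probe read 1.50 and 1.60 in WT, 1.65 and 1.60 in WT+NU6102, 1.98 and 1.82 in CDK2 KO, and 1.12 and 1.09 in R50. This was the largest difference among the 9 genes between R50 and CDK2 KO, a 1.73-fold lower level (log2 −0.80 ± 0.07, SE, limma adjusted p = 0.000995). A second DNMT3B probe, A_33_P3359508, annotated to a different transcript, was not well above background on any array and was not tested.

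Set against WT, the differences of the same 3 genes had opposite signs in the KO and the resistant cells. In CDK2 KO, UHRF1 rose by 0.36 ± 0.07 and DNMT3B by 0.35 ± 0.07 (log2, SE, limma adjusted p = 0.013 and 0.0167), and the DNMT1 difference was 0.23 ± 0.09 (limma adjusted p = 0.104). The second UHRF1 probe gave a smaller difference that was not called, 0.19 ± 0.06 (limma adjusted p = 0.0653). In R50, DNMT3B fell by 0.44 ± 0.07, UHRF1 fell by 0.37 ± 0.07 and DNMT1 fell by 0.32 ± 0.09 (log2, SE, limma adjusted p = 0.0127, 0.0172 and 0.0488). These comparisons share the WT arrays and cross slides. The KO calls of UHRF1 and DNMT3B were lost without the first WT array (0.33 and 0.30 on the log2 scale) or without the first KO array (0.31 and 0.275). The R50 call of DNMT1 was lost when any 1 of the 8 arrays was left out, with log2 differences from −0.41 to −0.235, and those of UHRF1 and DNMT3B were each lost without 3 of the 8 arrays. For UHRF1 these were WT 1, WT 2 and R50 2 (−0.39, −0.34 and −0.30), and for DNMT3B WT 2, R50 1 and R50 2 (−0.39, −0.46 and −0.42). Against CDK2 KO, by contrast, the calls of UHRF1, DNMT1 and DNMT3B were kept without any 1 of the 8 arrays.

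Replication genes were lower in R50 beside these 3 genes. Of 25 S phase genes, a list of helicase, licensing, polymerase and nucleotide synthesis genes that holds none of the 10, 22 were lower in R50 than in CDK2 KO and the other 3 were not called (median log2 −0.40, against −0.06 over all tested genes). Against WT, 18 were lower in R50 and the other 7 were not called, a count that dropped to 6 without WT 1, 5 without WT 2, 6 without R50 1 and 4 with no filter on dim probes. With NU6102, 17 of the 25 were higher and 5 lower (median log2 0.37). None of the 3 genes was called there, with DNMT1 above WT by 0.255, DNMT3B by 0.08 and UHRF1 by 0.045. In CDK2 KO against WT 9 of the 25 were higher and 2 lower (median log2 0.135). The shares of the list called were 88% in R50 against CDK2 KO, 72% in R50 against WT, 88% with NU6102 and 44% in CDK2 KO. Over all probes the shares were 34.4%, 22.6%, 44.7% and 31.1% in that order. The summed relative signal of the list was 515 to 535 in WT, 582 to 608 in WT+NU6102, 593 to 599 in CDK2 KO and 430 to 440 in R50, the same order of R50 lowest that UHRF1, DNMT1 and DNMT3B showed. Of 15 G2 and M genes 1 was higher in R50 than in CDK2 KO and the other 14 were not called. Against WT, 0 were higher and 8 lower in CDK2 KO (53.3% called, median log2 −0.18). In R50 against WT 0 were higher and 3 lower (20%, median log2 −0.16). With NU6102 5 were higher and 0 lower (33.3%, median log2 0.07). The part of cell cycle composition in the 3 genes' differences was not tested. Fewer cells in S phase and less RNA per cell cannot be told apart in bulk RNA.

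Promoter sequence was set beside these members because they moved together. RefSeq starts on GRCh38.p14 gave 23 windows of 250 bases before a start for 9 of the 10 genes, TRIM28 having no entry. Each window was searched on both strands for 4 letter strings of the E2F type, the binding motif of the factors that drive S phase genes, namely TTTGGCGC, TTTCCCGC, TTTGCCGC and TTTCGCGC. Of all 35116 windows of this kind, 2.79% held at least 1 of the 4. Among the members 2 of the 23 windows did, both of them among the 3 windows of UHRF1. The first UHRF1 window (chr19:4909251-4909500, plus strand) is shown with the match in capitals, TTTCCCGC on the opposite strand, which begins 14 bases before the start, and the DNMT1 window (chr19:10194954-10195203, minus strand) is shown beside it with none.
UHRF1: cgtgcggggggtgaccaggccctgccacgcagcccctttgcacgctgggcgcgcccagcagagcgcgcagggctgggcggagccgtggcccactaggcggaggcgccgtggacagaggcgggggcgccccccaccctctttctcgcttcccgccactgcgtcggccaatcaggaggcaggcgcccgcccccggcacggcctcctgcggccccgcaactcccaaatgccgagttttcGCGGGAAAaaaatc
DNMT1: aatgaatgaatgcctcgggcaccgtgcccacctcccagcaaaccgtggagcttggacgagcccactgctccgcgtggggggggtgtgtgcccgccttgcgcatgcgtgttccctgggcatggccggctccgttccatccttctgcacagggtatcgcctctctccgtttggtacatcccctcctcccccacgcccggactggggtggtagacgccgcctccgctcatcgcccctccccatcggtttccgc
The UHRF1 window holds 28 CpG dinucleotides and the DNMT1 window 21, where the median over all windows is 11, and the only DNMT3B window holds 3. A match to these letters describes the window and does not show binding. Starts outside this set were not searched, so a single window need not describe the main promoter of a gene.

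**Figure D2:**
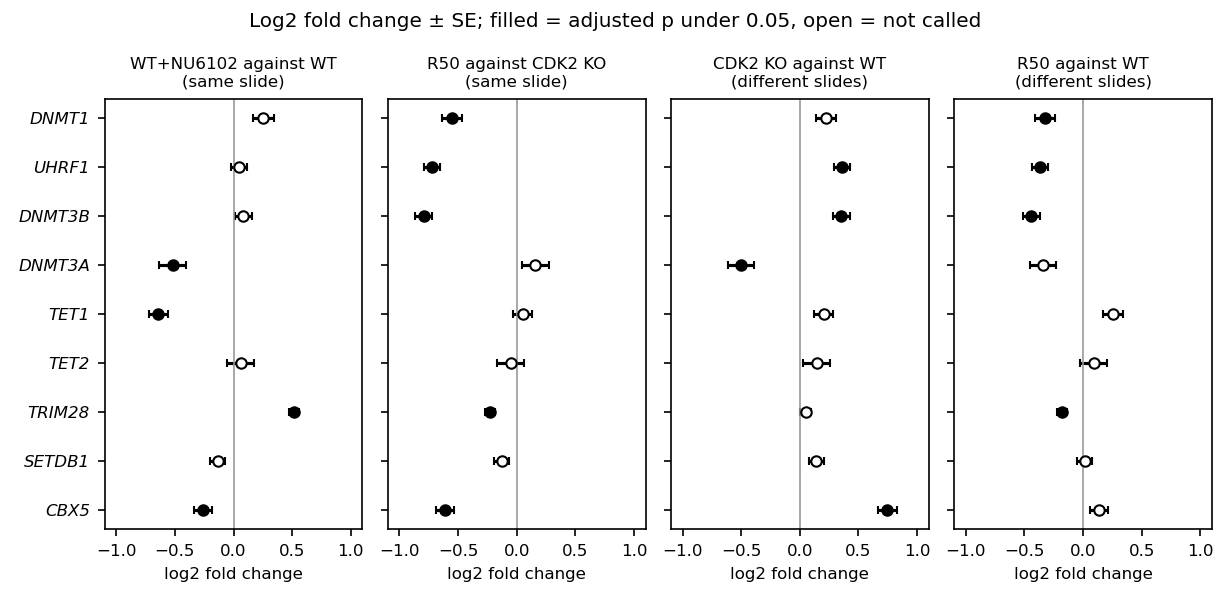
Log2 fold change of the brightest probe of each of the 9 tested genes (x axis, points, with SE as bars, n = 2 arrays per group) in the 4 comparisons, filled where limma's adjusted p was under 0.05. The 5 filled points of R50 against CDK2 KO all lie below 0, and in WT+NU6102 against WT only TRIM28 is filled above 0.

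With acute inhibition neither gene of the maintenance pair was called (DNMT1 was 0.255 ± 0.09 above WT on the log2 scale, limma adjusted p = 0.0592, and called higher in 6 of 17 alternatives), and the members called at their brightest probes were TRIM28, TET1, DNMT3A and CBX5. TRIM28, the KRAB corepressor, read 4.79 and 4.82 in WT, 5.30 and 5.35 in WT+NU6102, 4.84 and 4.87 in CDK2 KO, and 4.61 and 4.64 in R50. The inhibitor arrays stood above the other 6, and the rise over WT was 1.43-fold (log2 0.52 ± 0.05, SE, limma adjusted p = 0.000646). In CDK2 KO against WT the TRIM28 difference was 0.05 ± 0.05 (limma adjusted p = 0.478). In R50, TRIM28 was lower than in CDK2 KO (log2 −0.23 ± 0.05, limma adjusted p = 0.0148) and than in WT (−0.18 ± 0.05, limma adjusted p = 0.0448). The call against WT was lost when any 1 of the 8 arrays was left out (−0.195 to −0.165), and the call against CDK2 KO without KO 1, KO 2 or R50 1 (−0.24, −0.21 and −0.21). The rise with NU6102 was kept without any 1 array.

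TET1, one of the methylcytosine oxidases, went the other way with NU6102. Its brightest probe, A_33_P3295550, read 0.57 and 0.73 in WT, 0.07 and −0.06 in WT+NU6102, 0.90 and 0.81 in CDK2 KO, and 0.88 and 0.93 in R50. The fall was 1.56-fold (log2 −0.64 ± 0.08, SE, limma adjusted p = 0.00195), and it was kept without any 1 array. A second probe, A_19_P00806490, fell by 0.74 ± 0.10 (limma adjusted p = 0.00234). A dimmer one, A_23_P322756, was well above background on 3 of the 4 arrays compared and differed by −0.74 ± 0.28 (limma adjusted p = 0.0816). In CDK2 KO and R50 the brightest probe was above WT by 0.20 ± 0.08 and 0.26 ± 0.08, neither past the threshold (limma adjusted p = 0.117 and 0.079), while A_19_P00806490 rose by 0.46 ± 0.10 in CDK2 KO (limma adjusted p = 0.0198), a call lost without WT 1, WT 2 or KO 2 (0.52, 0.40 and 0.39).

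DNMT3A gave opposite changes with NU6102 at different probes. The brightest, A_23_P154500, read −1.31 and −1.25 in WT, −1.85 and −1.75 in WT+NU6102, −1.78 and −1.79 in CDK2 KO, and −1.79 and −1.46 in R50, so that WT was above every other array. It fell by 0.52 ± 0.11 with NU6102 and by 0.50 ± 0.11 in CDK2 KO (log2, SE, limma adjusted p = 0.0139 and 0.0229), and the R50 difference was −0.34 ± 0.11 (limma adjusted p = 0.0856). The probe next to it, A_33_P3272330, read −1.35 and −1.48 in WT and −2.78 and −2.55 in WT+NU6102, a 2.38-fold fall (log2 −1.25 ± 0.11, SE, limma adjusted p = 0.000628), the one called change of more than 2-fold among the 20 tested probes. The probe of the short transcript, A_23_P420373, 47.3 kb away, read −3.55 and −3.32 in WT and rose to −2.50 and −2.46 in WT+NU6102 (log2 0.95 ± 0.17, SE, limma adjusted p = 0.0073). The 3 DNMT3A probes all fell in CDK2 KO, by 0.50, 0.51 and 0.67 on the log2 scale. Whether the probes differ between the groups was not tested as an interaction. The fall of A_23_P154500 was not called without WT 1, WT 2 or WT+NU6102 1 (−0.55, −0.49 and −0.47), and its CDK2 KO call was lost without any 1 of the 4 arrays compared (−0.53 to −0.47). The CDK2 KO call of A_33_P3272330 was lost without WT 1, WT 2 or KO 2 (−0.44, −0.57 and −0.41), and that of A_23_P420373 without 6 of the 8 arrays in turn, all but the R50 arrays (−0.78 to −0.56), and with normexp background correction (−0.24). The NU6102 calls of both were kept without any 1 array.

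**Figure D3:**
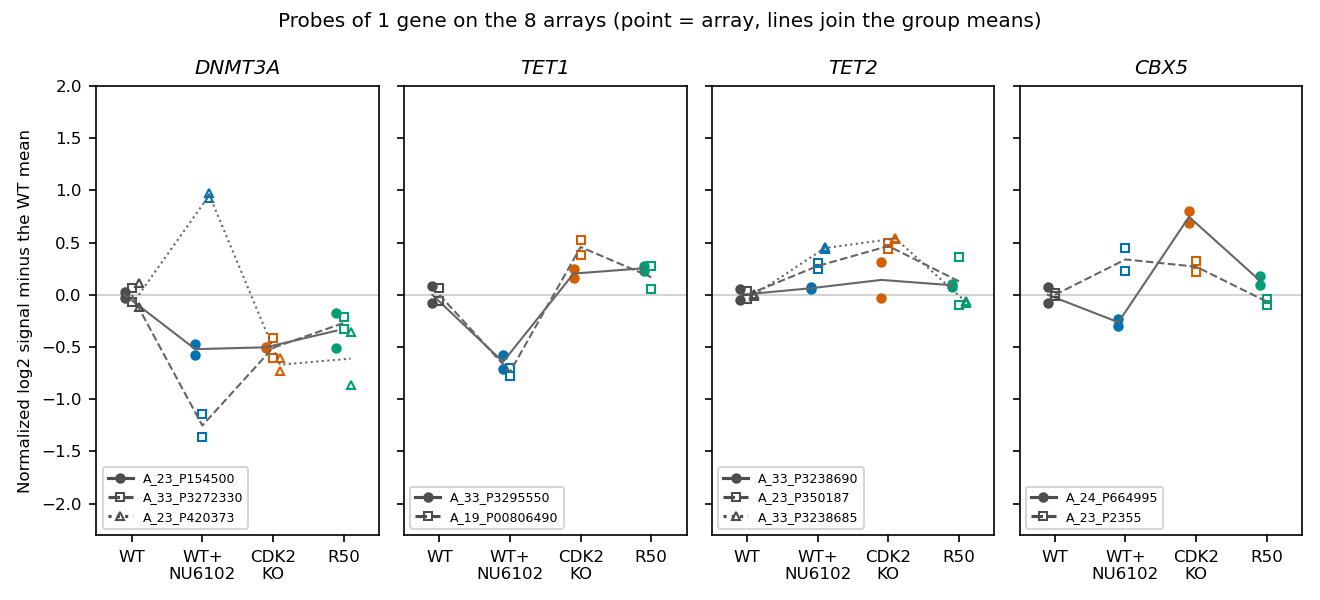
Normalized log2 signal minus the WT mean of the same probe (y axis) on the 8 arrays for probes of DNMT3A, TET1, TET2 and CBX5, with a point per array and lines between group means. With NU6102 the short-transcript probe of DNMT3A rises while the other 2 fall, both TET1 probes fall, and the 2 CBX5 probes move apart.

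CBX5, which encodes HP1α, showed the largest rise of the 9 genes in CDK2 KO. The brightest probe, A_24_P664995, read 2.20 and 2.35 in WT, 1.98 and 2.05 in WT+NU6102, 2.96 and 3.08 in CDK2 KO, and 2.46 and 2.37 in R50. The KO arrays stood well above the others, by 1.68-fold over WT (log2 0.75 ± 0.08, SE, limma adjusted p = 0.00174) and by 1.52-fold over R50 on the same slide (limma adjusted p = 0.003). The R50 level was 0.14 ± 0.08 above WT (limma adjusted p = 0.259). With NU6102 this probe fell by 0.26 ± 0.08 (limma adjusted p = 0.039), a call lost without 7 of the 8 arrays in turn, all but WT 1, with log2 differences from −0.30 to −0.19.

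The other CBX5 probe, A_23_P2355, read 0.94 and 0.91 in WT, 1.16 and 1.38 in WT+NU6102, 1.25 and 1.14 in CDK2 KO, and 0.89 and 0.84 in R50. It was higher with NU6102 by 0.34 ± 0.09 (limma adjusted p = 0.0235), the reverse of the brighter probe and a call lost without WT 1, WT 2 or WT+NU6102 2 (0.35, 0.325 and 0.23), and higher in CDK2 KO by 0.27 ± 0.09 (limma adjusted p = 0.0646). Both probes were lower in R50 than in CDK2 KO, this one by a log2 difference of −0.33 ± 0.09 (limma adjusted p = 0.0317). That call was lost without 6 of the 8 arrays in turn, all but those of WT+NU6102 (−0.39 to −0.28), while the call of the brighter probe was kept without any 1 array.

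CBX5 was the one member whose 4 group means spanned at least 1 log2 unit at its brightest probe. The span was 1.009 there and 0.404 at A_23_P2355, a probe that the r values below do not use. Among 2453 genes with such a span and a probe well above background on all 8 arrays, those with the highest Pearson r to it over the 8 arrays were SNORA76 (r = 0.9898), HDAC5 (r = 0.9885) and TMTC4 (r = 0.9882). HDAC5 encodes a class II histone deacetylase. It differed from WT by −0.57 with NU6102, 1.31 in CDK2 KO and 0.23 in R50 (log2). These r values describe 8 arrays in 4 groups and share the arrays' scaling.

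TET2 depended on the probe too. Its brightest, A_33_P3238690, read −0.13 and −0.02 in WT, −0.02 and −0.004 in WT+NU6102, 0.24 and −0.10 in CDK2 KO, and 0.03 and 0.003 in R50. None of its 4 comparisons was called in limma, and 0 had an unadjusted p under 0.05 (log2 differences between −0.05 and 0.14). The dimmer A_33_P3238685 read −3.02 and −3.01 in WT, −2.57 and −2.56 in WT+NU6102, −2.48 and −2.47 in CDK2 KO, and −3.08 and −3.09 in R50. It was higher than WT with NU6102 by 0.45 ± 0.04 and in CDK2 KO by 0.54 ± 0.04, and lower in R50 than in CDK2 KO by a log2 difference of −0.61 ± 0.04 (limma adjusted p = 0.000769, 0.000724 and 0.000436). Another probe, A_23_P350187, differed from WT by 0.28 ± 0.15, 0.47 ± 0.15 and 0.13 ± 0.15 with NU6102, in CDK2 KO and in R50, none of them called. The probe of another TET2 transcript, A_33_P3266719, was well above background on both KO arrays and on no other array. It was tested only because of its level in CDK2 KO, so that a higher level there was fixed by the filter, and its limma comparisons with WT and R50 were not called (adjusted p = 0.0744 and 0.0732).

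The remaining members showed no called change. SETDB1, the H3 lysine 9 methyltransferase of the KRAB pathway, read 3.22 and 3.30 in WT, 3.15 and 3.10 in WT+NU6102, 3.38 and 3.42 in CDK2 KO, and 3.34 and 3.21 in R50 at its brightest probe. The differences from WT were −0.13 ± 0.06, 0.14 ± 0.06 and 0.015 ± 0.06 in that order (log2, SE, limma adjusted p = 0.152, 0.159 and 0.898). None of the 3 SETDB1 probes was called in limma in any of the 4 comparisons, and 3 of these 12 tests had an unadjusted p under 0.05. With quantile normalization its brightest probe was called lower with NU6102 (log2 −0.30). TET3 has 2 probes, neither of them well above background on any of the 8 arrays, so its level was below what these probes measured.

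Counted over the 9 tested genes by their brightest probes, 4 were called in WT+NU6102 against WT, TRIM28 higher and DNMT3A, TET1 and CBX5 lower, where 44.7% of all tested probes were called (23.6% higher and 21.1% lower). In CDK2 KO against WT 4 were called, CBX5, UHRF1 and DNMT3B higher and DNMT3A lower, where 31.1% of all probes were (15.8% higher and 15.3% lower). In R50 against WT 4 were called, all lower (DNMT3B, UHRF1, DNMT1 and TRIM28), where 22.6% of all probes were called, 9.78% higher and 12.8% lower. In R50 against CDK2 KO 5 were called, all lower (DNMT3B, UHRF1, CBX5, DNMT1 and TRIM28), where 34.4% of all probes were called, 15.2% higher and 19.3% lower. The shares of members were 44.4%, 44.4%, 44.4% and 55.6%, so with the inhibitor it was close to the background. The brightest probes of the 9 genes were all well above background on all 8 arrays. Among the 24489 probes of that kind, adjusted by themselves, 50.7%, 36.9%, 28.2% and 40.1% were called in the same order. Whether shares of 9 genes differ from these was not tested. No brightest probe passed both the p threshold and a 2-fold change in any comparison, a rule that 6.49%, 4.74%, 2.59% and 5.2% of probes met in the same order. The F-test among the 4 groups at an adjusted p under 0.001 passed for 3 of the 9 genes, TET1, TRIM28 and CBX5, and for 21.1% of all probes.

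Other genes of both pathways were counted by the same rule from lists chosen by function, beside the 44.7% of all probes called with NU6102, 31.1% in CDK2 KO against WT, 22.6% in R50 against WT and 34.4% in R50 against CDK2 KO. Of 8 tested partners and donor enzymes of the methyltransferases, 5 were lower in R50 than in CDK2 KO (median log2 −0.25) and the other 3 were not called. Among the 5 were USP7, a deubiquitinase that stabilises UHRF1 and DNMT1 (−0.86 ± 0.12, limma adjusted p = 0.00425), and HELLS, a chromatin remodeller needed for methylation of repeats (−0.49 ± 0.09, limma adjusted p = 0.0106). Against WT, USP7 rose by 0.67 ± 0.12 in CDK2 KO (limma adjusted p = 0.0112), and 0 of the 8 were called in R50, of which 4 had an unadjusted p under 0.05, and 3 at most were lower under an alternative. With NU6102 PCNA, the replication clamp, rose by 0.47 ± 0.05 and DMAP1, a DNMT1 partner, by 0.40 ± 0.05 (limma adjusted p = 0.00143 and 0.00262).

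Genes linked to demethylation were counted likewise. Of 11 tested, 1 was higher and 5 lower with NU6102, and 6 were higher and 4 lower in CDK2 KO than in WT. In R50 1 was higher and 2 lower than in WT, and 1 was higher and 7 lower than in CDK2 KO. MBD4, a glycosylase that removes T from T:G mismatches at CpG, rose by 1.71 ± 0.11 in CDK2 KO (log2, SE, limma adjusted p = 0.00036) and was lower in R50 than in CDK2 KO by a log2 difference of −1.66 ± 0.11 (limma adjusted p = 0.000337). TDG, the glycosylase that excises the products of TET oxidation, rose by 1.01 ± 0.06 with NU6102 (limma adjusted p = 0.000198), the only gene of the list called higher there. IDH1, which makes the α-ketoglutarate that TET enzymes use, fell by 0.85 ± 0.06 with NU6102 (limma adjusted p = 0.000378). Counts of lists include probes that were below background in one of the groups compared.

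Among 6 tested methyl-CpG readers 4 were higher and 1 lower with NU6102, with MBD1 up by 0.81 ± 0.04 and ZBTB4 lower by a log2 difference of −0.75 ± 0.07 (limma adjusted p = 0.000194 and 0.000725). In CDK2 KO against WT 0 readers were higher and 1 lower. In R50 1 was higher and 0 lower than in WT, and 2 were higher and 0 lower than in CDK2 KO. The shares called were 83.3% with NU6102, then 16.7%, 16.7% and 33.3%, where 31.1%, 22.6% and 34.4% of all probes were called. Of 24 tested partners of TRIM28 and SETDB1 (HP1 paralogs, other H3 lysine 9 methyltransferases, NuRD, HUSH and chromatin assembly subunits), 7 were higher and 4 lower with NU6102, 7 higher and 3 lower in CDK2 KO, 2 higher and 6 lower in R50 against WT, and 3 higher and 11 lower in R50 against CDK2 KO. These are 45.8%, 41.7%, 33.3% and 58.3% of the 24, so the first is close to the share of all probes. The methyltransferase SUV39H2 rose with NU6102 (0.76 ± 0.05, limma adjusted p = 0.000335) and fell in R50 by 0.34 ± 0.05 against WT (limma adjusted p = 0.0118). MORC2, an ATPase that works with HUSH, was lower in CDK2 KO than in WT (log2 −0.76 ± 0.08) and higher in R50 than in CDK2 KO (0.58 ± 0.08, limma adjusted p = 0.00167 and 0.00357).

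**Figure D4:**
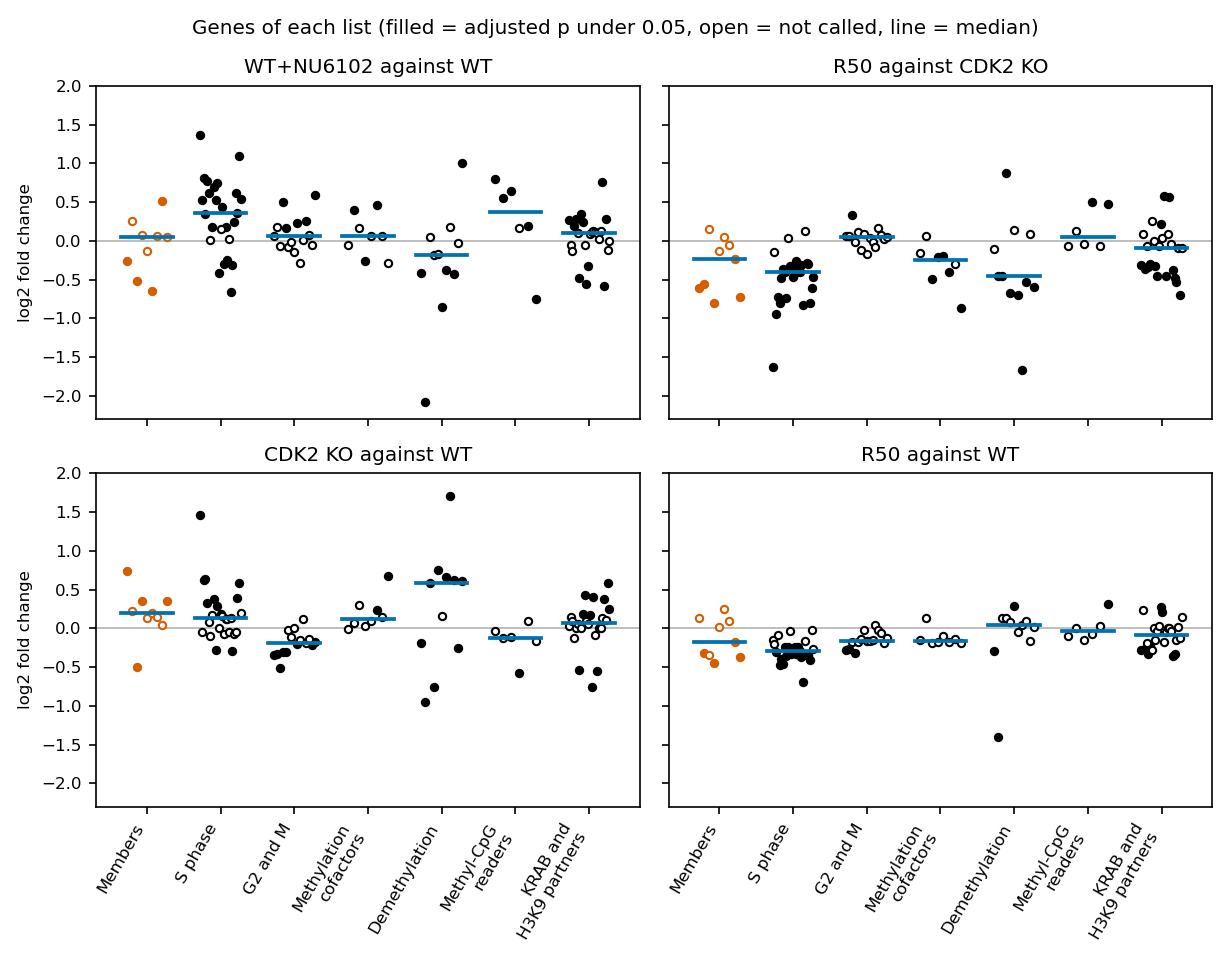
Log2 fold change (y axis) of the 9 tested members and of the genes of 6 lists in the 4 comparisons, with a point per gene, filled where limma's adjusted p was under 0.05, and a line at each median. In R50 against CDK2 KO UHRF1, DNMT1, DNMT3B and every called S phase gene lie below 0, and the G2 and M genes lie around it.

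Genes that are commonly silenced by methylation were read in the same arrays. Of 28 germline and cancer-testis genes 24 were on the array and 11 were tested. By the filter, these 11 were detected in 1 or more groups. With NU6102 5 of the 11 were higher and the other 6 were not called (median log2 0.56, against 0.03 over all tested genes). All 5 were MAGE genes, among them MAGEA12 (0.71 ± 0.06, limma adjusted p = 0.000431) and MAGEC2 (0.67 ± 0.15, limma adjusted p = 0.0161). The 5 are 45.5% of the 11, close to the 44.7% of all probes called (23.6% higher and 21.1% lower). MAGE genes are near-identical copies of one another, so their probes may share signal. In CDK2 KO and in R50 against WT 0 of the 11 were called in limma, with 2 at an unadjusted p under 0.05 in each, and no more than 2 under any alternative. Of 16 tested imprinted genes, 6 were higher and 6 lower with NU6102, and 0 were higher and 5 lower in CDK2 KO than in WT. In R50 2 were higher and 1 lower than in WT, and 4 were higher and 1 lower than in CDK2 KO. These are 75%, 31.2%, 18.8% and 31.2% of the 16. Of all probes 44.7%, 31.1%, 22.6% and 34.4% were called in the same order. PEG10 fell by 1.99 ± 0.09 in CDK2 KO (limma adjusted p = 0.000124), and H19 was higher in R50 than in WT (1.42 ± 0.15, limma adjusted p = 0.00363). Methylation itself was not measured on these arrays.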

How the data were processed

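For every spot of 8 one-colour Agilent arrays the authors deposited a background-subtracted intensity that was not normalized between arrays (Agilent Feature Extraction 11.5.1.1). Their GeneSpring GX log2 values, deposited for 28719 probes, served as an alternative. The latter follow the log2 intensity closely (r of differences between arrays 0.9988 to 0.9996) and are centred on each probe's median.

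In R 4.3.3, control spots and outlier spots were left out, 31 probes without a usable spot on some array were dropped, log2 intensity was scaled by the 75th percentile of all 58717 spots that are not controls, and spots of a probe were averaged. An array had 32376 to 36206 spots well above background and 0 saturated, and a dim probe's change is uncertain. Limma 3.58.1 fitted the 4 groups together, and tests were two-sided. The fit was tested on simulated data. Python 3.11.15 read the sequence windows, and matplotlib 3.10.9 drew the figures.

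The 10 genes, and the lists set beside them, were chosen with earlier results of these data known. From the lists, the 2 genes with the largest called change per comparison, well above background on all 4 arrays, could be named, and for a member spanning 1 log2 unit the 3 genes with the highest r. Of the genes this rule picks, 1 is not reported here. Lists were colon epithelium, fibroblast, leukocyte and endothelium markers, S phase, G2 and M, methylation cofactors, demethylation, methyl-CpG readers, KRAB and H3 lysine 9 partners, germline and imprinted genes. The alternatives were quantile normalization, normexp (offset 50), no filter, a filter on all 8 arrays, the authors' values, a trended prior, a replicate block, arrays of 1 slide, the methods' ANOVA with an unmoderated pairwise test, a 2-fold rule, the second probe and each array left out. Recounting the lists under them was added after seeing the data.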

Additional observations from a re-analysis of the deposited data

How the results depend on the processing

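Directions held for every called brightest-probe difference under the alternative processing of the same probe, and calls did not. The second probe of CBX5 reversed its NU6102 difference (0.34 on the log2 scale). Counts of members called were 0 in all 4 comparisons when a 2-fold change was also required. In WT+NU6102 against WT the count was 1 with the unmoderated pairwise test and 2 to 4 without 1 array. In CDK2 KO against WT it was 1 with no filter on dim probes, 0 with the unmoderated test and 1 to 4 without 1 array. In R50 against WT it was 2 with quantile normalization, 0 with no filter, 2 with the replicate block, 0 with the unmoderated test and 0 to 2 without 1 array. In R50 against CDK2 KO it was 0 with the unmoderated test and 4 to 5 without 1 array. The count of members past the F-test was 5 with normexp, 5 with probes well above background on all 8 arrays, 6 with a trended prior, 0 with no filter, 0 with the replicate block, 1 with the methods' ANOVA and 0 without any 1 array. With no filter 50568 probes were adjusted together, and the share past the F-test fell to 1.9%. The cause of the other changes was not tested. The replicate block rested on numbers that do not pair the arrays, since deviations of same-numbered arrays correlated with r between −0.028 and 0.045, and it changed the calls of DNMT1 and TRIM28 in R50 against WT, and of the second CBX5 probe in R50 against CDK2 KO. Of the 30 member differences that were called, over all tested probes, 26 were lost in some alternative, and the unmoderated pairwise test alone lost 26. Of the 50 member differences that were not called, 19 were called in some alternative, most often DNMT1 with NU6102, in 6 of 17. Leaving out an array leaves 1 array in its group, which is then assumed to vary like the others.

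Differences that were not called under the processing reported changed sign as follows, on the log2 scale. With the second probe, UHRF1 with NU6102 was −0.024, CBX5 in R50 against WT −0.064 and TET1 in R50 against CDK2 KO −0.29. With quantile normalization, DNMT3B and UHRF1 with NU6102 were −0.035 and −0.13, and the SETDB1 probe A_33_P3252479 in R50 against CDK2 KO was 0.022. With normexp, TET2 A_33_P3238685 and SETDB1 A_33_P3305399 in R50 against WT were 0.007 and 0.006. With the authors' processed values, SETDB1 A_33_P3252479 with NU6102 was 0.006. Without 1 array in turn, the lowest and highest values of those that changed sign were as follows. For DNMT3A in R50 against CDK2 KO they were −0.005 and 0.325, and for its probe A_23_P420373 −0.19 and 0.31. For SETDB1 in R50 against WT they were −0.05 and 0.079, and for its probe A_33_P3305399 −0.079 and 0.022 there and −0.018 and 0.083 with NU6102. For SETDB1 A_33_P3252479 they were −0.049 and 0.043 with NU6102 and −0.079 and 0.042 in R50 against CDK2 KO. For TET2 they were −0.027 and 0.31 in CDK2 KO and −0.22 and 0.12 in R50 against CDK2 KO. In R50 against WT, TET1 A_23_P322756 ranged from −0.22 to 0.26, TET2 A_23_P350187 from −0.10 to 0.36 and TET2 A_33_P3266719 from −0.145 to 0.18. UHRF1 A_33_P3379454 with NU6102 ranged from −0.064 to 0.017. Signal over background limits TET3, the second DNMT3B probe and TET2 A_33_P3266719.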
